A study of Homo sapiens with 4 samples.

Results

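The block examined here is a stretch of the long arm of human chromosome 18, from EPG5 to CYB5A, in which RNA levels were lower in the lung-metastatic subline MDA-MB-231-LM2 (LM2) than in its parental line MDA-MB-231. Its members were taken as the protein-coding genes that start within this stretch and had a mean of at least 50 counts over both cell lines, each represented by the transcript with the highest mean. SMAD2, SMAD4, SMAD7, CCBE1, BCL2, PMAIP1, NARS1, ATP5F1A and the SERPINB and CDH genes were left out by name. This gave 52 members, of 12475 protein-coding genes at that level in the data. In the RefSeq annotation of GRCh38.p14 the block runs from base 45800581 to base 74291963 of chromosome 18, 28.5 megabases, and holds 101 protein-coding genes. Of these, 21 were left out by name, 27 had a mean under 50 counts (11 with 0 counts in both lines) and 1 was not analysed here. The stretch was chosen by the ratios of its genes between these columns, so the ratios of its members are a description and not a test.

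MDA-MB-231 is a widely used line of human breast cancer cells that lack hormone receptors and have a mesenchymal form, and LM2 is a subline of it with a high ability to colonise the lung. Neither line received a further treatment. Both were kept in 10% FBS, but the parental cells grew in Leibovitz L-15 at 100% air, whereas the subline grew in DMEM with 5% CO2 in 95% air. The culture conditions and the line cannot be told apart. Although 2 samples of each line are labelled, the deposited tables hold 1 column per line, and no source used here says if a column combines them. No replicate check of any difference was therefore possible, and p-values are left out. In pairs of values, MDA-MB-231 comes first and LM2 second. Ratios set LM2 against MDA-MB-231, each count first taken relative to its column total of 130689252 and 128985870 counts, and the 95% intervals (exact, Clopper-Pearson) cover counting error only. RPKM is a count scaled for length and depth, and in the parental column 1 RPKM stands for 131 counts of a 1-kilobase transcript. Markers of such cells were as follows. The mesenchymal filament VIM had an RPKM of 550 and 951, the estrogen receptor ESR1 had 2 and 8 counts, the progesterone receptor PGR 7 and 2, and the epithelial cadherin CDH1 13 and 0. Also present were CD44 (RPKM 23.02 and 19.0) and the keratin KRT18 (112 and 134), while the epithelial antigen EPCAM was low (1.61 and 1.60). Among markers of other cell types, the leukocyte antigen PTPRC had 8 and 7 counts, the B cell antigen MS4A1 0 and 0, the endothelial PECAM1 48 and 343, the collagen COL1A1 209 and 532, and CD68, a lysosomal protein that is not limited to macrophages, 5583 and 4266. The part of PECAM1 and COL1A1, which differed between the lines, in the other results was not tested.

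Genes that lie side by side on a chromosome need not share a function, and those of this stretch of 18q take part in processes as different as autophagy, GPI anchor synthesis, spindle assembly and heme synthesis. The long arm of chromosome 18 is known for genes of TGFβ signaling and cell death, and is often lost in carcinomas of the colon and pancreas. DNA was not measured in the data analysed here.

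What members share apart from their place was first looked for in their promoters. RefSeq (GRCh38.p14) gave a window for 45 of the 52 members, of which the 250 bases before the first annotated start of the gene were used. CpG islands, which cover the promoters of most widely expressed genes, are stretches in which the dinucleotide CG is nearly as frequent as base composition allows. A ratio of observed to expected CG over 0.6 was found in 40 of the 45 members (88.9%; RPL17 and its read-through gene share a start), against 80.2% of 10303 protein-coding genes that had a window and at least 50 counts, and 63.4% of all 15843 protein-coding promoters. Sequences are shown for members that were lower in LM2 and members that were not, limited to bases that lie in no exon of GENCODE release 29, each from 5′ to 3′ on the strand of the gene, with every CG in capitals. ONECUT2 (chr18:57435124-57435373, plus strand, 20 CG) and VPS4B (chr18:63422484-63422726, minus strand, 21 CG) were lower in LM2. MYO5B (chr18:50195148-50195397, minus strand, 37 CG), RAB27B (chr18:54717607-54717856, plus strand, 4 CG) and ALPK2 (chr18:58629092-58629341, minus strand, 7 CG) were not. The last sequence is part of the stretch between PIGN and RELCH (chr18:62187119-62187254, on the strand of RELCH, 8 CG), members that are transcribed away from each other.
ONECUT2: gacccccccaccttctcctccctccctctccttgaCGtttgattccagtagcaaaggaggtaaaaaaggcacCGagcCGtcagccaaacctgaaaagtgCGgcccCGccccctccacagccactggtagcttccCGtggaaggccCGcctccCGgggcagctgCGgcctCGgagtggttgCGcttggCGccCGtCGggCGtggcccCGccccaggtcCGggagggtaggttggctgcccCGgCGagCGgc
VPS4B: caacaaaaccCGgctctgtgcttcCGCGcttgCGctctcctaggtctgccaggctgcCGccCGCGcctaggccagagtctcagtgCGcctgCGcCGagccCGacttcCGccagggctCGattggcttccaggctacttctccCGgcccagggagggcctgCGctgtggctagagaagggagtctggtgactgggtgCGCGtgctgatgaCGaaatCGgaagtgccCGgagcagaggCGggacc
MYO5B: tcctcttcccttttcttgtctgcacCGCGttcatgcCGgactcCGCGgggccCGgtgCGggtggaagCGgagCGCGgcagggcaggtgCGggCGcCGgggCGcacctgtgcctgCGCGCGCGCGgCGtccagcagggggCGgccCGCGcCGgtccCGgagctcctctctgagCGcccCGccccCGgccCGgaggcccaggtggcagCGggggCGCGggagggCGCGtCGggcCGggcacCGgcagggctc
RAB27B: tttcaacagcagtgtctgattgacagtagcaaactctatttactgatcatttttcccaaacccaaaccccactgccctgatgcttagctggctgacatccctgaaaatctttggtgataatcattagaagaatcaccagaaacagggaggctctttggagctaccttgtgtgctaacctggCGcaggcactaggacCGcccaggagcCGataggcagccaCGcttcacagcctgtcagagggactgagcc
ALPK2: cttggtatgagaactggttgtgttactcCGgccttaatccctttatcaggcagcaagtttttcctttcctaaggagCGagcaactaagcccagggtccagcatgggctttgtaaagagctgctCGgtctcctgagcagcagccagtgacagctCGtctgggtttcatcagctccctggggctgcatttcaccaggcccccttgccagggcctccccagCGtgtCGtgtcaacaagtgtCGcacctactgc
PIGN to RELCH: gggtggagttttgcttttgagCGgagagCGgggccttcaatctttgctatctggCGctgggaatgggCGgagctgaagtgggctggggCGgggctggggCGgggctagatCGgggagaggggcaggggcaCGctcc

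LM2 cells had less RNA than MDA-MB-231 cells for most of the block. Of the 52 members, 47 had a ratio below equal (49.7% of all 12475 protein-coding genes), 34 were over 1.5-fold lower (background 15.1%) and 14 were over 2-fold lower (background 6.75%). None was over 1.5-fold higher (background 10.5%) or over 2-fold higher (background 4.62%). Since these ratios chose the block, nothing is read from the counts. The median log2 ratio of the members was -0.71 (interval of the median -0.90 to -0.62), which is 1.64-fold lower, and the central members lay between -1.01 and -0.50 (quartiles), whereas the median of all protein-coding genes was 0.00. Counting intervals lay wholly below equal in 47 members (background 39.8%), wholly above in 1 (background 39.2%) and held equal in 4. The lowest ratio was that of ATP8B1, at -2.22, and the highest that of MYO5B, at 0.22. Members closest to the minimum of 50 counts were TCF4 (mean 73) and HMSD (mean 92), and just below it were KATNAL2 (52 and 46 counts), ELAC1 (68 and 30) and ZBTB7C (23 and 74), which were not members.

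**Figure D1:**
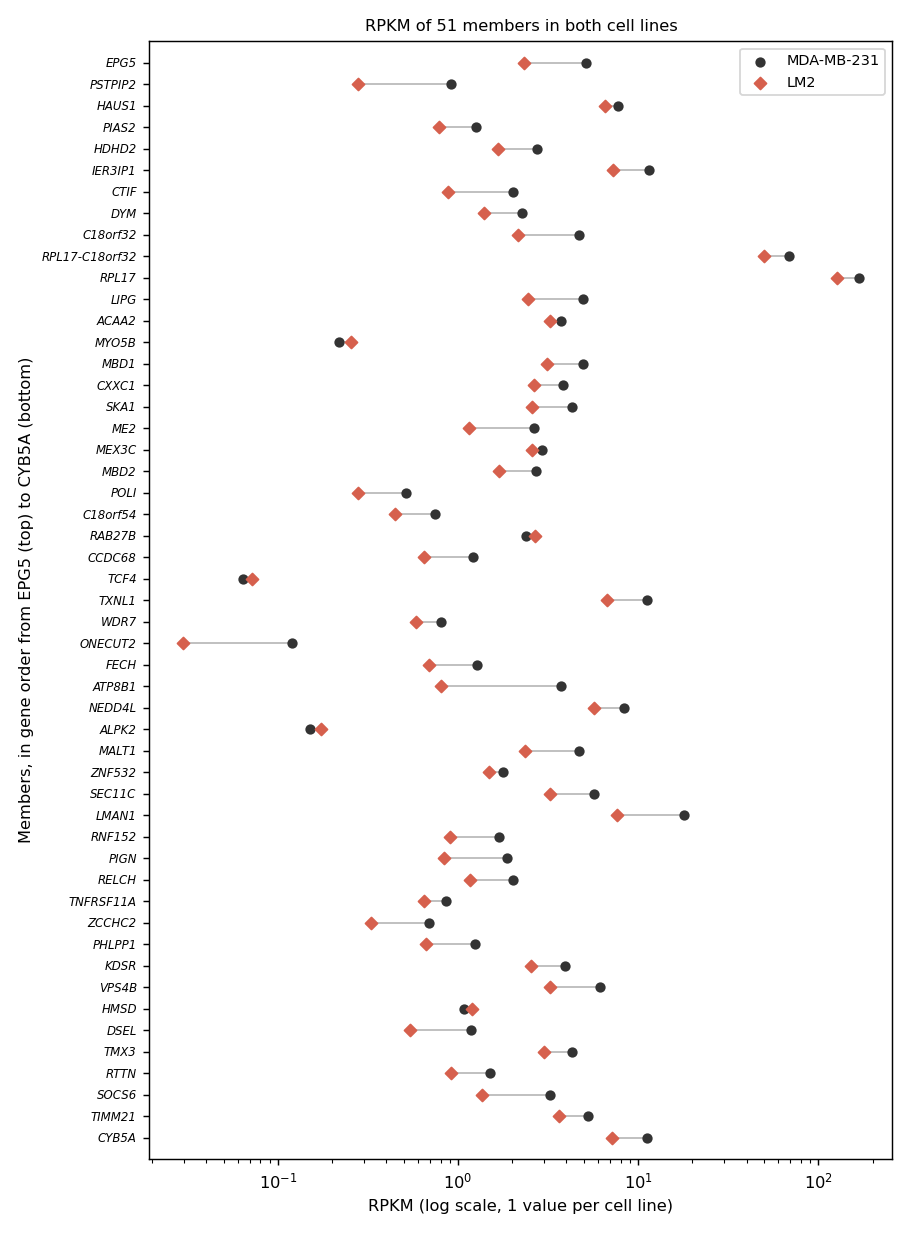
RPKM of 51 of the members in MDA-MB-231 (dark circles) and LM2 (red diamonds) on a log scale (x axis), in gene order from EPG5 to CYB5A (y axis), 1 value per cell line. In 46 of them the diamond lies to the left of the circle, from ONECUT2 at 0.121 and 0.0298 to RPL17 at 167 and 127.

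The lower levels ran through the block and did not stop at CYB5A. In 4 groups of 13 members in gene order, the median log2 ratio was -0.69 from EPG5 to LIPG, -0.68 from ACAA2 to TCF4, -0.90 from TXNL1 to PIGN and -0.71 from RELCH to CYB5A. Over runs of 15 neighbouring protein-coding genes at the minimum of 50 counts, including those left out by name, the lowest median was -0.91, reached in runs centred on MALT1, ZNF532, LMAN1, CCBE1 and PIGN. At the same minimum, which also applied to the rest of the chromosome, the 15 genes after CYB5A, up to PARD6G, had a median of -0.67 (-1.05 to -0.59). This was close to that of the members. Of these genes, 15 of 15 were below equal (background 49.7%), 12 over 1.5-fold lower (background 15.1%) and 4 over 2-fold lower (background 6.75%). The 3 nearest of these, CNDP2 (5180 and 3366 counts, log2 ratio -0.60), ZNF407 (1443 and 871, -0.71) and PTGR3 (1384 and 877, -0.64), resembled CYB5A (1256 and 791, -0.65). No step in the values was seen at the distal end of the block. On the other side, the 47 genes from ROCK1 to SETBP1 had a median of -0.28 (-0.39 to -0.13) and 9 over 1.5-fold lower (19.1%). The 43 genes of the short arm had -0.35 (-0.47 to -0.24) and 9 over 1.5-fold lower (20.9%). Both shares over 1.5-fold lower were near the background of 15.1%, but most genes of both stretches were below equal. This held for 36 of 47 (76.6%) from ROCK1 to SETBP1 and 36 of 43 (83.7%) of the short arm (background 49.7%). Counting intervals lay wholly below equal in 61.7% and 81.4% (background 39.8%), so smaller differences in the same direction were not limited to the block. The block was chosen for lower ratios than these genes, so the distance between the medians is no finding, and intervals of medians describe the spread over genes, which are not replicates. The 3 nearest genes before EPG5 at that minimum were KIAA1328 (378 and 196 counts, -0.93), PIK3C3 (1770 and 1221, -0.52) and SETBP1 (4 and 188, 5.41). With the block among its genes, chromosome 18 had the lowest median of the chromosomes, -0.49 over 168 genes, followed by chromosome 6 at -0.32. The 105 genes of chromosome 18 outside the block had a median of -0.39, also below that of chromosome 6.

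**Figure D2:**
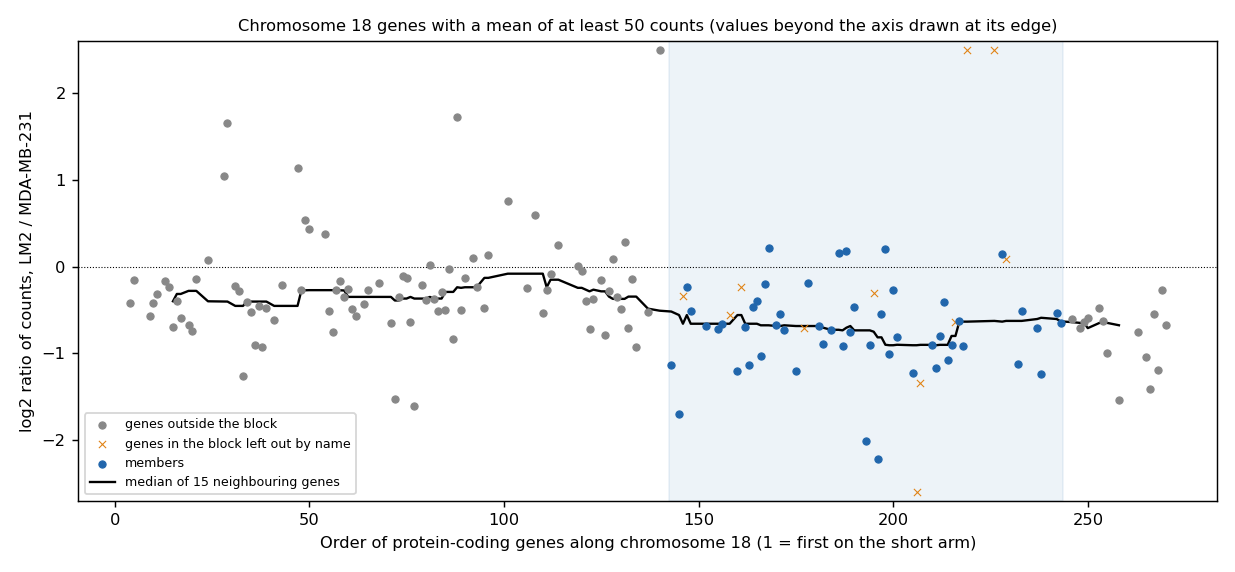
Log2 ratio of counts, LM2 over MDA-MB-231 (y axis), of protein-coding genes in their order along chromosome 18 (x axis), 1 value per gene. Blue points in the shaded area are members, grey points genes outside the block, crosses genes left out by name, and the black line is the median of 15 neighbouring genes, which goes down to -0.91 in the block and stays near -0.65 after it.

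Genes of membrane traffic and autophagy were the largest group. Of 11 members, 9 had ratios below equal (background 49.7%), 8 were over 1.5-fold lower (background 15.1%) and 3 over 2-fold lower (background 6.75%). Their median log2 ratio was -0.80. The block was chosen by these ratios, so nothing is read from the counts of this or the following role groups. ATP8B1 (NM_005603), a flippase that moves phospholipids to the inner leaflet of the membrane and is needed for bile flow, had an RPKM of 3.74 and 0.800, 4.67-fold lower (4.28 to 5.11). LMAN1 (NM_005570), the cargo receptor that carries clotting factors from the endoplasmic reticulum, had 17.96 and 7.67, 2.34-fold lower (2.26 to 2.42). EPG5, a tether of autophagosomes and late endosomes, had 5.10 and 2.33, 2.19-fold lower (2.11 to 2.27). These 3 members had counting intervals wholly beyond 2-fold. VPS4B, an ATPase that takes ESCRT filaments apart, had an RPKM of 6.12 and 3.24, and RELCH, a protein of recycling endosomes, 2.02 and 1.16. SEC11C, a subunit of the signal peptidase, had 5.71 and 3.25. DYM, a Golgi protein mutated in Dyggve-Melchior-Clausen dysplasia, had 2.26 and 1.395, and IER3IP1, a small protein of the endoplasmic reticulum, 11.5 and 7.29. WDR7, a partner of the vacuolar proton pump, was less than 1.5-fold lower (0.800 and 0.581).

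RAB27B and MYO5B, which act in exocytosis and in the recycling of vesicles, did not take part in the lower levels. RAB27B, a small GTPase of secretory vesicles and exosomes, had 2196 and 2421 counts, 1.12-fold higher (1.05 to 1.18). It was the member whose counting interval lay wholly above equal. MYO5B, the motor that moves recycling endosomes along actin, had 272 and 313 counts, a log2 ratio of 0.22 (-0.02 to 0.46).

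All 10 mitochondrial and metabolic members had ratios below equal (background 49.7%), 7 over 1.5-fold lower (background 15.1%) and 2 over 2-fold lower (background 6.75%), with a median of -0.68. ME2, the mitochondrial malic enzyme that turns malate into pyruvate, had the lowest ratio, with an RPKM of 2.64 and 1.15, 2.31-fold lower (2.11 to 2.53). LIPG, the endothelial lipase that acts on phospholipids of HDL, had 4.97 and 2.43, and FECH, which inserts iron into heme, 1.28 and 0.686. The thioredoxin-like protein TXNL1 had 11.3 and 6.69, the phosphatase HDHD2 2.74 and 1.67, and CYB5A, the cytochrome b5 that passes electrons to lipid enzymes, 11.1 and 7.11. KDSR, which makes dihydrosphingosine in ceramide synthesis, had 3.94 and 2.55. TIMM21, a subunit of the mitochondrial import channel, had 5.25 and 3.63, and TMX3, a disulfide isomerase of the endoplasmic reticulum, 4.28 and 3.001, both less than 1.5-fold lower. ACAA2, the thiolase of mitochondrial fatty acid oxidation, had the smallest difference, 3.73 and 3.26, 1.14-fold lower (1.04 to 1.26).

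The 3 members of glycan and GPI anchor synthesis lay close together. PIGN, which adds a phosphoethanolamine to the GPI anchor, had an RPKM of 1.87 and 0.835, 2.24-fold lower (2.02 to 2.49). C18orf32, a lipid droplet protein linked to GPI anchors, had 4.69 and 2.14, 2.19-fold lower (1.96 to 2.45), and DSEL, an epimerase of dermatan sulfate, 1.18 and 0.542, 2.18-fold lower (1.98 to 2.39). All 3 were over 2-fold lower (background 6.75%), and their counting intervals overlapped. Among RNA and translation genes, CTIF, a factor of the cap-binding complex in the first round of translation, had 2.01 and 0.875, 2.298-fold lower (2.10 to 2.52). RPL17, a protein of the large ribosomal subunit and the most abundant member, had an RPKM of 167 and 127, 1.32-fold lower (1.29 to 1.35). The read-through gene RPL17-C18orf32 (69.0 and 50.1) holds reads of RPL17, so these members are not independent. Its span also overlaps that of C18orf32, and reads shared with C18orf32 were not counted. Reads of RPL17 copies elsewhere in the genome may enter the counts of RPL17 and the read-through gene.

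Of 9 genes of transcription and chromatin, 8 had ratios below equal (background 49.7%), 5 were over 1.5-fold lower (background 15.1%) and 2 over 2-fold lower (background 6.75%). Their median was -0.68. ONECUT2, a homeodomain factor of liver and neural development, had 254 and 62 counts, 4.04-fold lower (3.05 to 5.43), at an RPKM of 0.121 and 0.0298. ZCCHC2, a zinc finger protein, had an RPKM of 0.689 and 0.327, and POLI, a polymerase that copies past DNA lesions, 0.515 and 0.278. The methyl-CpG binding proteins MBD1 (4.96 and 3.10) and MBD2 (2.72 and 1.69) were 1.60-fold (1.49 to 1.71) and 1.61-fold lower (1.49 to 1.73), close to each other. CXXC1, which binds unmethylated CpG for the SETD1 complexes, had 3.85 and 2.65. The zinc finger gene ZNF532 differed least among those below equal (1.78 and 1.48). TCF4, an E protein of lymphoid and neural development, was near the minimum at 69 and 77 counts, with a log2 ratio of 0.18 and an interval (-0.31 to 0.67) that neither separates it from equal nor from a 1.5-fold difference upward.

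All 5 ubiquitin and SUMO ligase members had ratios below equal (background 49.7%), and 3 were over 1.5-fold lower (background 15.1%). SOCS6, a suppressor of cytokine and growth factor signaling, had 3.23 and 1.36, 2.37-fold lower (2.20 to 2.55). RNF152, a lysosomal ligase that restrains mTORC1, had 1.69 and 0.902, and the SUMO ligase PIAS2 1.26 and 0.781. NEDD4L, the ligase of the epithelial sodium channel, was the most counted of the 5 (9052 and 6099 counts), 1.46-fold lower (1.42 to 1.51). MEX3C, an RNA-binding ligase, had 2.92 and 2.57, 1.14-fold lower (1.06 to 1.22). The 5 spindle, centrosome and cilium genes were also below equal, 4 of them over 1.5-fold lower and 0 over 2-fold lower (background 6.75%). CCDC68, a centriolar appendage protein, had 1.21 and 0.645, C18orf54 0.745 and 0.448, SKA1, which couples kinetochores to microtubules, 4.27 and 2.58, and RTTN, a centriole assembly factor, 1.498 and 0.917. HAUS1, a subunit of the augmin complex, differed least (7.72 and 6.56), 1.18-fold lower (1.08 to 1.28).

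Of 5 signalling members, 4 had ratios below equal (background 49.7%), 3 were over 1.5-fold lower (background 15.1%) and 2 over 2-fold lower (background 6.75%). PSTPIP2, an adaptor of the actin cytoskeleton, had 360 and 109 counts, 3.26-fold lower (2.62 to 4.08). MALT1, the paracaspase that links CARD proteins to NF-κB, had an RPKM of 4.70 and 2.35, 2.002-fold lower (1.88 to 2.13), so its interval held 2-fold. PHLPP1, a phosphatase that acts on AKT, had 1.24 and 0.665, and TNFRSF11A, the receptor RANK of osteoclast biology, 0.860 and 0.648. The kinase ALPK2 was low in both lines (144 and 164 counts), with a log2 ratio of 0.21 (-0.13 to 0.54). Outside the lists, HMSD, a gene between serpin genes that gives rise to a minor histocompatibility antigen, had 88 and 96 counts and an interval (-0.29 to 0.58) that held equal.

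**Figure D3:**
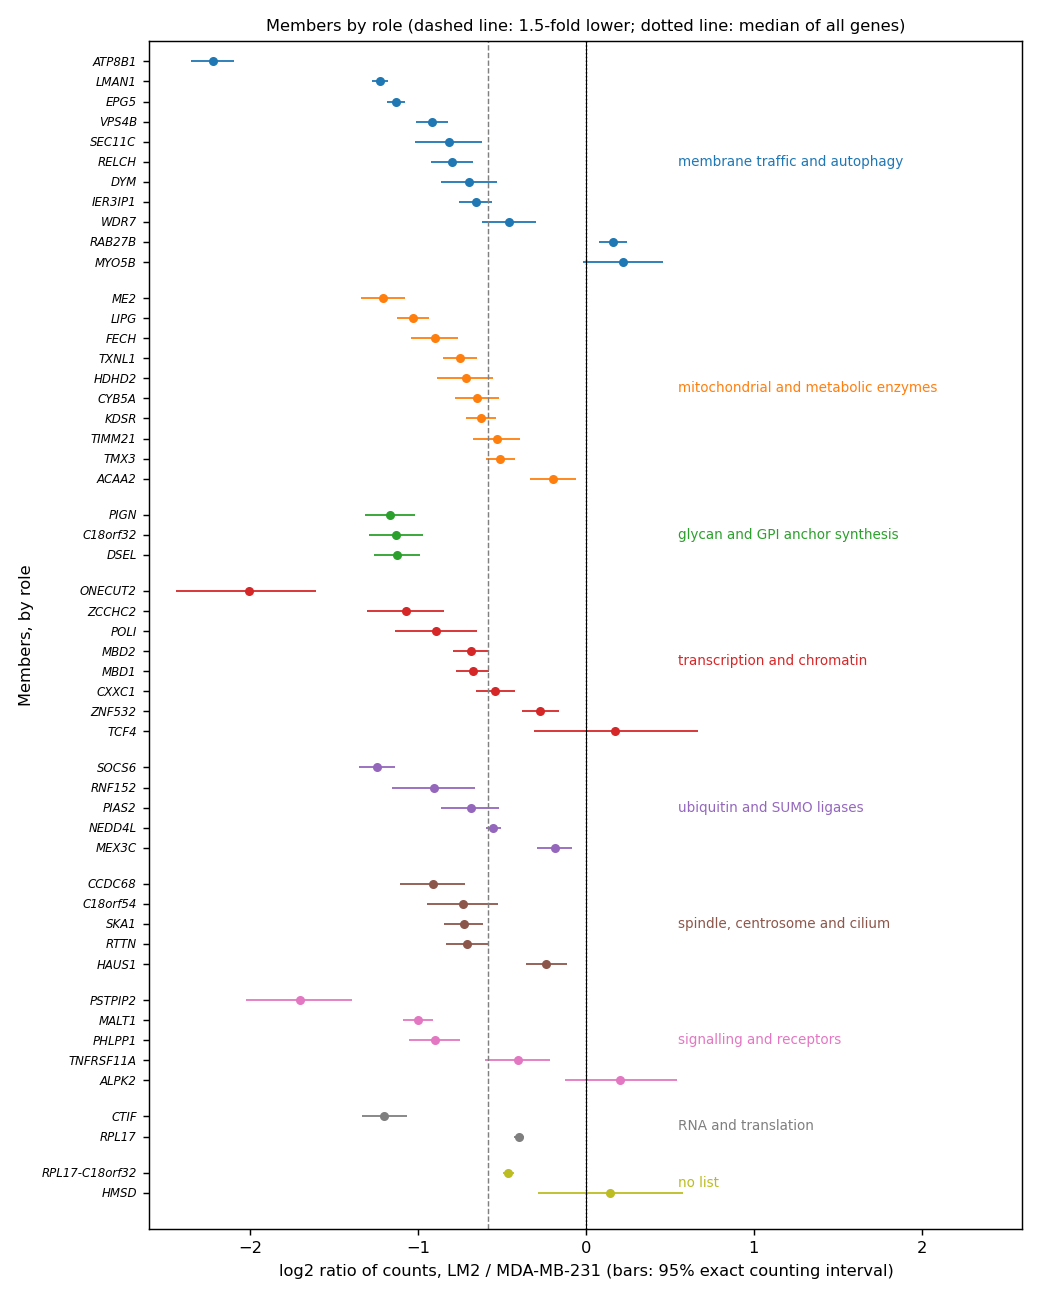
On the x axis, the log2 ratio of LM2 to MDA-MB-231 counts for 51 of the members (y axis) by role, 1 value per cell line, with bars for the 95% exact counting interval. The dashed line marks 1.5-fold lower and the dotted line the median of all genes, and 5 members (RAB27B, MYO5B, TCF4, ALPK2 and HMSD) lie to the right of equal.

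The ratios of the members are also given by the CG content of their windows, as a description from which nothing is read: the split was made after the ratios were seen, on the ratios that chose the block, and rests on 5 CG-poor members. Of the 45 members with a promoter window, 5 had a ratio of observed to expected CG at or under 0.6: TCF4, RAB27B, ALPK2, ZNF532 and NEDD4L. Their log2 ratios ran from -0.55 to 0.21 with a median of 0.16, and 0 of the 5 were over 1.5-fold lower. The 40 members with CG-rich windows had a median of -0.73, from -2.01 to 0.22, and 28 of them (70%) were over 1.5-fold lower. MYO5B and HMSD were above equal with CG-rich windows. In 10303 protein-coding genes with a window and at least 50 counts, the order was the opposite: 21.6% of 2045 genes with CG-poor windows and 12.9% of 8258 with CG-rich windows were over 1.5-fold lower. TCF4 and ALPK2 have few counts, and members that use a later start have another promoter than the window. In the sequences shown, the 4 CG of RAB27B and 7 of ALPK2 stand beside 20 of ONECUT2 and 37 of MYO5B.

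**Figure D4:**
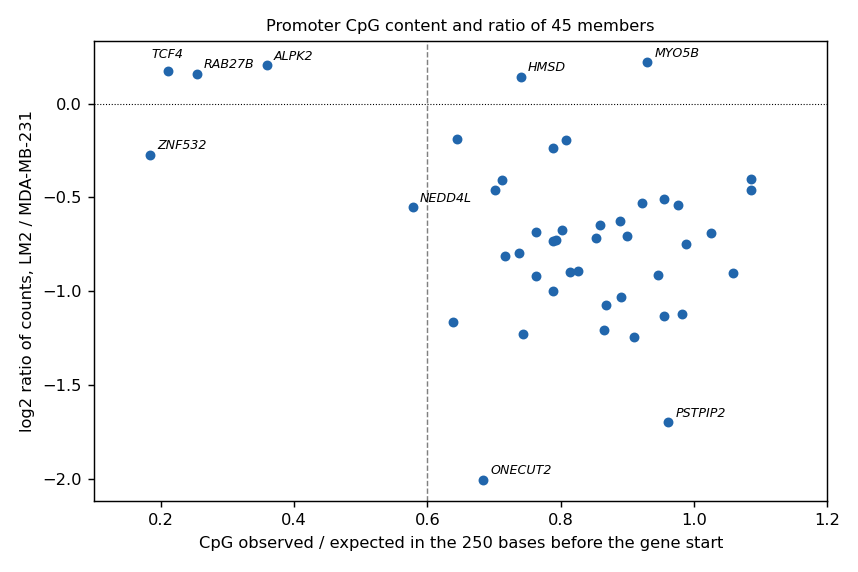
Log2 ratio of counts, LM2 over MDA-MB-231 (y axis), against the ratio of observed to expected CG in the 250 bases before the gene start (x axis), for the 45 members with a window, 1 point per gene. The 5 points left of the dashed line at 0.6 lie between -0.55 and 0.21, and the 40 points on its right have a median of -0.73; over all genes CG-poor windows went with more, not fewer, genes over 1.5-fold lower.

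Motifs in the windows were set against all protein-coding promoters, not against those of expressed genes alone. The GC box GGGCGG, on either strand, was in 29 of 45 windows (64.4%, against 56.0% of all protein-coding promoters), and CCAAT in 14 (31.1%, against 34.5%). TATAAA was in 1 (2.22%, against 9.23%), CACGTG in 2 (4.44%, against 7.84%), CCGGAAG in 5 (11.1%, against 11.8%), TGACGTCA in 1 (2.22%, against 2.32%) and the NRF1 palindrome in 1 (2.22%, against 1.48%). Motifs were matched letter by letter on both strands, and a match is not a binding site. PIGN and RELCH start 198 bases apart on opposite strands, and were 2.24-fold (2.02 to 2.49) and 1.74-fold lower (1.60 to 1.90), with counting intervals that do not meet.

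Among the 52 members, the rank correlation of the log2 ratio was -0.01 with RPKM in MDA-MB-231, -0.11 with transcript length and -0.06 with gene order, given as a description of genes that share these columns. The 26 members at or above the median RPKM had a median log2 ratio of -0.67 and the 26 below it -0.77. All 5 members above equal were in the lower group. The 26 members with longer transcripts had a median of -0.84 with 10 over 2-fold lower (background 6.75%). The 26 with shorter ones had -0.68 with 4 over 2-fold lower. All protein-coding genes were not split by length, so nothing is read from these counts. In 4455 protein-coding genes within the middle RPKM range of the members (1.24 to 4.96), the median was -0.03. Other transcripts of the members gave the same picture but share reads: 22 members had more than 1 transcript at the minimum count, and the log2 ratio varied by 0.16 within MBD1 (14 transcripts) and MBD2 (2 transcripts), the widest spreads, and by 0.00704 at the median.

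Paralogues and complex partners of the members, encoded on other chromosomes, were set beside them. Of 80 genes listed for 26 members, 78 had at least 50 counts, and 6 of these were over 1.5-fold lower (7.69%, against a background of 15.1%) with a median log2 ratio of 0.03 (-0.05 to 0.16). In 68 of the 78, the ratio was above that of the member. CARD14 was under the minimum (74 and 22 counts) and MBD3 was not analysed here. These partners were not used to choose the block, whereas the low values of the members were, so the contrast is a description. SEC11A, NEDD4 and MEX3B, which were higher in LM2, are encoded on chromosome 15. That chromosome had a median log2 ratio of 0.17 over 392 genes, with 103 over 1.5-fold higher (background 10.5%). Other partners encoded there were lower in LM2, such as MYO5C and DMXL2. The part of the chromosome in the ratios of partners was not tested.

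Several complexes had a member with a lower ratio than its other subunits. For the kinetochore complex of SKA1 (log2 ratio -0.73), SKA2 was at 0.23 and SKA3 at 0.24. In the signal peptidase, SEC11C was at -0.81, its paralogue SEC11A at 1.17 (3103 and 6890 counts), SPCS1 at 0.42, SPCS2 at 0.42 and SPCS3 at -0.02. Of the partners in GPI anchor synthesis, PIGO was at -0.12, PIGF at -0.01, PIGG at 0.14 and PIGB at 0.39, beside -1.17 for PIGN. In heme synthesis, FECH (-0.90) was below the enzymes ahead of it that are named here, from UROD at 0.44 to PPOX at -0.55. Between these were ALAS1 (0.20), ALAD (0.21), UROS (-0.06) and CPOX (-0.53). The augmin subunit HAUS1 (-0.24) was below HAUS2 to HAUS8, which ran from -0.02 for HAUS4 to 0.52 for HAUS5. The counting intervals of HAUS1 (-0.36 to -0.11) and HAUS7 (-0.12 to 0.13) overlapped, so the order of HAUS1 and HAUS7 is not settled. CXXC1 (-0.54) was below the 7 listed subunits of its complexes, from SETD1B at -0.48 to RBBP5 at 0.33, with SETD1A (0.01), ASH2L (0.04), WDR5 (-0.17), DPY30 (-0.12) and WDR82 (0.21) between them. The counting intervals of CXXC1 (-0.66 to -0.42) and SETD1B (-0.66 to -0.30) overlapped, so the order of CXXC1 and SETD1B is not settled. TIMM21 (-0.53) was below TIMM17A (0.44), TIMM17B (-0.31), TIMM23 (0.28) and TIMM50 (0.02).

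ME2 (-1.21) stood beside ME1 at 0.47 and ME3 at -0.23, and VPS4B (-0.92) beside VPS4A at -0.11. NEDD4L (-0.55) stood beside NEDD4 at 0.94 (3311 and 6279 counts), ITCH at -0.33 and WWP1 at -0.02. CYB5A (-0.65) stood beside CYB5B at 0.56 and its reductase CYB5R3 at -0.18, and TXNL1 (-0.75) beside TXN at 0.54 and TXNRD1 at 0.21. For PIAS2 (-0.69), PIAS1 was at 0.11, PIAS3 at -0.56 and PIAS4 at 0.46, and for SOCS6 (-1.24), SOCS2 was at -0.44, SOCS4 at 0.43, SOCS5 at -0.16 and SOCS7 at -0.48. PHLPP2 was at -0.49 beside PHLPP1 (-0.90), MBD4 at 0.36 beside MBD1 (-0.68), and RAB7A, the late endosome GTPase that EPG5 binds, at 0.28 beside EPG5 (-1.13). ACAA2 (-0.20) lay within the range of HADHA (-0.05), HADHB (-0.37), ACADVL (0.50) and ECHS1 (0.16), and MEX3C (-0.19) was below MEX3A (0.08), MEX3B (1.66, from 91 and 285 counts) and MEX3D (-0.03). The counting interval of MEX3C (-0.29 to -0.08) overlapped those of MEX3A (-0.19 to 0.36) and MEX3D (-0.095 to 0.03).

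Partners that were themselves lower belonged to few members. For MALT1 (-1.002), the scaffold CARD10 was below the member at -1.31 (3040 and 1209 counts), whereas BCL10 was at 0.13. MCFD2, which forms the cargo receptor with LMAN1 (-1.23), was at -0.60 (22108 and 14396 counts). SPTLC2 was at -0.999 beside KDSR (-0.62), with SPTLC1 at 0.01 and SPTSSA at -0.17. For WDR7 (-0.46, interval -0.62 to -0.30), ROGDI was at -0.77 (-1.08 to -0.46) and DMXL2 at -0.58 (-0.68 to -0.48). Both ratios were lower than that of WDR7, but their counting intervals overlapped its own. DMXL1 was at 0.11. The paralogues of MYO5B (0.22) were both lower than it, MYO5A at -0.14 and MYO5C at -1.11, and the adaptor RAB11FIP2 was at 0.06. TCF3 was at 0.68 and TCF12 at -0.05 beside TCF4 (0.18), and RAB27A (0.21) was close to RAB27B (0.16).

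**Figure D5:**
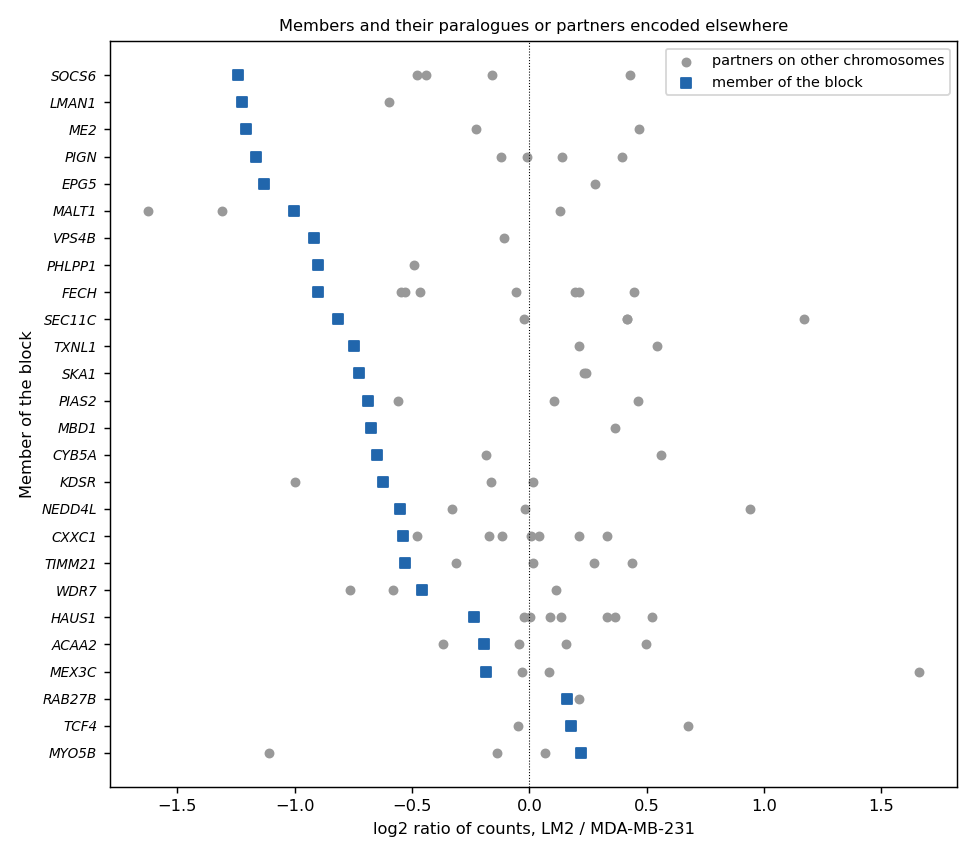
On the x axis, the log2 ratio of LM2 to MDA-MB-231 counts for 26 members (blue squares) and of 78 paralogues or partners encoded on other chromosomes (grey points), 1 row per member (y axis), 1 value per cell line. In 68 of 78 cases the partner lies to the right of the member.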

How the data were processed

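RNA of 4 samples, 2 per cell line, was sequenced. The submitters' processing notes name TopHat2 (version 2.0.13), bcl2fastq and the build hg19. The counter used by the authors, its annotation and any strand setting were not given in the sources used here. Reads of genes that overlap on opposite strands therefore cannot be told apart. The spans of 27 members, introns included, overlap another gene of either strand. How many share exons on opposite strands was not counted. The authors deposited read counts per transcript for 65423 transcripts, with totals of 130689252 and 128985870. The authors also deposited RPKM values, which equal the count over length and total to a relative difference of at most 4.98e-06. The 12 transcripts with most counts held 30.7% and 27.4% of the totals.

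Symbols, biotypes and gene order came from RefSeq (GRCh38.p14), with Ensembl transcripts paired through GENCODE release 29. They were found for 33699 of 34791 NM_, 6773 of 7527 NR_ and 9518 of 23105 ENST transcripts. No coordinates of hg19 were converted. Log2 ratios used counts plus 0.5, and folds and intervals the counts alone. The interval of a median came from order statistics at 95%. The tests planned on libraries could not be run on 1 column per line. The calculation was tested on simulated counts. Alternatives were scaling factors from edgeR 4.0.16 and DESeq2 1.42.0 in R 4.3.3, other minimums, transcripts and members, and log2(RPKM + 0.1) and log2(RPKM + 1). Python 3.11.15, numpy 2.4.6, scipy 1.17.1, pandas 2.3.3 and matplotlib 3.10.9 were used.

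The members, the role lists, the partner lists and the alternatives were chosen with earlier results of these data known. By the naming rule every member was named, except 1 member and 2 partners that are counted but not reported here, with full values for the lowest and highest of each role list and the largest RPKM, the 3 genes next to each edge, and the listed partners. Other named genes were markers, genes near the minimum, and genes of the closing section.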

Additional observations from a re-analysis of the deposited data

How the results depend on the processing

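Of 15 alternatives, 14 left the number of members over 1.5-fold lower within 1.5 times of 34 and the median of the members within its interval. The exception was log2(RPKM + 1), which shrinks differences of weakly expressed genes: 14 members were then over 1.5-fold lower (6.53% of all genes), the median of the members was -0.45 and that of the genes of chromosome 18 outside the block was -0.27, against -0.39 as reported. Without the 12 transcripts with most counts in the totals, 10 partners were over 1.5-fold lower in place of 6 (17.2% of all genes). The median of all genes was then -0.06. With no minimum count, 41 of 79 genes of the block were over 1.5-fold lower (18.4% of all genes). With the genes left out by name added back, 38 of 63 were over 1.5-fold lower (15.1% of all genes). Across the alternatives, 597 of 620 values of single members stayed on their side of 1.5-fold, 20 were no longer past it, 3 newly passed it and 0 changed sign past it. Leaving out the read-through gene and setting the median of genes outside chromosome 18 to 0 were chosen after seeing the data. No paired analysis was possible because the tables hold 1 column per cell line, and for the same reason leaving out replicates was not run. Depth limited TCF4, whose counting interval (-0.31 to 0.67) held both equal and a 1.5-fold difference upward. The intervals of HMSD (-0.29 to 0.58), ALPK2 (-0.13 to 0.54) and MYO5B (-0.02 to 0.46) held equal but no 1.5-fold difference.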

Other observations

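Non-coding RNAs of the block were few at this depth. Of 47 listed non-coding genes that start between EPG5 and CYB5A, 5 had a mean of at least 50 counts. The 5 ratios were below equal, against 49.7% of all protein-coding genes. The stretch was chosen for low ratios, and SNORA37 and SNORD58B lie in the spans of members. The count is therefore a description and not separate evidence. SCARNA17, a small Cajal body RNA that guides modification of spliceosomal RNA, had 1053 and 409 counts (MDA-MB-231 first, LM2 second), a log2 ratio of -1.34 (-1.51 to -1.18). It lies between ACAA2 and MYO5B, which had log2 ratios of -0.20 and 0.22, and closer to ACAA2. Its host transcript SNHG22 had 149 and 101 counts (-0.54, with an interval of -0.92 to -0.17). SNORA37, an H/ACA RNA of ribosomal RNA modification in the span of MBD2, had 3330 and 1688 counts, a log2 ratio of -0.96 (-1.05 to -0.88), beside -0.68 for MBD2. SNORD58B, a C/D box RNA in the span of RPL17, had 311 and 242 counts, a log2 ratio of -0.34 (-0.59 to -0.10), beside -0.40 for RPL17. LINC01929, an intergenic lncRNA, had 136 and 3 counts, a log2 ratio of -5.27 (-7.78 to -3.91).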
